A study of Homo sapiens with 16 samples.

Results

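The 10 genes described here belong to the unfolded protein response, the programme by which a cell answers misfolded protein in the endoplasmic reticulum (ER). They are HSPA5, HSP90B1, PDIA4, SDF2L1, DNAJB9, HERPUD1, ATF4, DDIT3, ATF6 and ERN1, and they were taken by gene symbol from the 62714 genes of the count tables. All 10 were found, and all 10 passed the filter on low counts in every comparison.

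The response is sensed by 3 proteins of the ER membrane. ERN1 (IRE1 alpha) splices the messenger RNA of XBP1, ATF6 is a transcription factor that is released by cleavage in the Golgi, and EIF2AK3 (PERK) phosphorylates a translation factor and thereby favours the translation of ATF4. Their targets include ER chaperones, the degradation machinery of the ER and the factor DDIT3 (CHOP), which is linked to cell death under lasting stress. In the B lineage, the ERN1 and XBP1 branch is known for its part in the step from B cell to antibody-secreting plasma cell.

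RNA-seq on ribosomal RNA depleted RNA was available for pools of 4 human B cell lymphoma lines, in which lentiviral pLENTI-CRISPRv2 with 4 guides had targeted either CREBBP, a histone acetyltransferase gene, or the AAVS site, a control location. Each pool was left untreated (baseline) or given IL4 for 4 h at a concentration of 10 ng/ml, which gave 16 libraries in 4 groups of 4, with 1 library per line. The groups are named by target and treatment, as in AAVS baseline or CREBBP IL4. The targeted cells are pools and not clones, all carry the lentiviral vector, and every line has its own genetic background. Lines are SU-DHL4, line 2, line 3 and DOHH2, because the titles of the labels call line 2 OCI-LY7 and line 3 SUDHL10 whereas the cell line entries hold these names the other way round. The samples of a group are different lines, so p-values measure whether a difference recurred across the 4 lines, and nothing in the labels tells how a pool varies between repeat cultures.

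Total counts per library ranged from 19649735 to 61981976, and levels are given in CPM, the count scaled to the library's total. All 9 B lineage markers were detected in every library, with sums of 3217 to 5798 CPM. CREBBP transcripts were measured at 205 to 360 CPM in AAVS baseline, 190 to 379 CPM in AAVS IL4, 187 to 278 CPM in CREBBP baseline and 69.9 to 245 CPM in CREBBP IL4, and these ranges overlap. Guides act on DNA and a disrupted gene can still be transcribed, so the transcript level is a weak check of the label. The paper reports that CREBBP protein was lost from the targeted pools by immunoblotting. All 4 AAVS IL4 libraries stood apart from the other 12. A list of 8 transcripts had been chosen from earlier results of these data to mark them, among them IGHM, CD44, VIM and AHNAK. Their sum was 1086 to 6062 CPM there and 5.69 to 14.9 CPM in the other 12, where 3 to 5 of the 8 were at 0. Of the 8, S100A4 did not mark these libraries, with 0.412 to 5.93 CPM there and 0.0490 to 7.29 CPM in AAVS baseline. IGHM alone lay between 138 and 1711 CPM in this group and reached 0.0696 CPM at most in any other library. Of the 13 T cell markers none was at 0 in these 4 libraries, with sums of 34.7 to 209 CPM, against 4 to 9 at 0 and sums of 2.42 to 38.4 CPM elsewhere. The 8 plasma cell markers summed to 474 to 8527 CPM in AAVS IL4 and to 241 to 1182 CPM in the other 12. In line 2 and DOHH2 the AAVS IL4 sums, 474 and 908 CPM, lay within the range of the other 12. IRF4, PRDM1 and IGHA1 were higher in every AAVS IL4 library than elsewhere, whereas SDC1, MZB1, JCHAIN, TNFRSF17 and IGHG1 overlapped. The monocyte and macrophage list (11 genes) summed to 15.1 to 32.1 CPM in AAVS IL4 and 5.53 to 29.3 CPM elsewhere, and the stroma list (6 genes) to 1.03 to 17.6 CPM and 0.124 to 34.0 CPM. One further library stood apart in its composition: in CREBBP IL4 of line 2, the noncoding RNAs 7SK and 7SL took 18.1% of all counts, the highest share of the 16, and the edgeR scaling factor of 0.723 was the lowest. Comparisons that include AAVS IL4 libraries therefore rest on libraries that also differ in the marking and T cell transcripts. An effect of the treatment and another origin of these transcripts cannot be told apart, because all 4 libraries share target and treatment. The part of these transcripts in the results was not tested.

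The promoters of 4 members hold the ER stress response element, the textbook binding site of ATF6 and XBP1 together with the factor NF-Y, and they are shown because this element is what ties these genes to the response. Promoter sequences of the 10 members were taken from RefSeq (GRCh38.p14, all 10 matched), from 250 bases before to 50 bases after the start site, and both strands were searched. The element ERSE was searched as CCAAT, 9 bases of any kind and CCACG, and ERSE-II as ATTGG, 1 base of any kind and CCACG. ERSE was found in HSPA5, from base -66 to -48 relative to the start site, and in HSP90B1 at -194 to -176 and, on the opposite strand, at -89 to -71. ERSE-II was found in HERPUD1 at -117 to -107 and, on the opposite strand, in SDF2L1 at -188 to -178. The sequences run from base -210 to -41 on the gene's strand (HSPA5 chr9:125241384-125241553, minus strand, HSP90B1 chr12:103930200-103930369, HERPUD1 chr16:56931932-56932101 and SDF2L1 chr22:21642092-21642261, all plus strand), with the elements in capitals:
HSPA5: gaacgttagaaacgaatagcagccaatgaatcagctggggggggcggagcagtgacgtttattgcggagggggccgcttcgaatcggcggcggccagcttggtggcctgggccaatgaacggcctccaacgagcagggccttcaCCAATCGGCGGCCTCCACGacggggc
HSP90B1: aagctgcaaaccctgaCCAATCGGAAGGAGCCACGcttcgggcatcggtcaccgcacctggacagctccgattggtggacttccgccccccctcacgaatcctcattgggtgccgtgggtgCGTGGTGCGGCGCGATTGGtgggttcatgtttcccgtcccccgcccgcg
HERPUD1: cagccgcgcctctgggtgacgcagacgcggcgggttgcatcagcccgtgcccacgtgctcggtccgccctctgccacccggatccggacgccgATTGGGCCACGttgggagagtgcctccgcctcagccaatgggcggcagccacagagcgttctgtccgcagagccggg
SDF2L1: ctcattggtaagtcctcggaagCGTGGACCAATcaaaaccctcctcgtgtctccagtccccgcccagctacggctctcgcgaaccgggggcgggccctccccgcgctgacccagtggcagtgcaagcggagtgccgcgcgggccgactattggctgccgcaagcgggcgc

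ERSE was present in 27 of 35116 promoters of the table (0.0769%) and ERSE-II in 19 (0.0541%). Outside the members, CALR, CANX, CRELD2, ERO1B, PDIA6 and XBP1 of the pathway lists below also held ERSE, and HYOU1 held ERSE-II. Their shorter parts were common: CCAAT was in 34.6% of promoters and in 8 of the 10 members, and CCACG in 38.1% and in 7 of the 10, and both overlap the longer elements. The UPR element, searched as TGACG directly followed by TGG, was in 0.729% of promoters and in none of the members. The core of the amino acid response element, the type of site that ATF4 binds, was searched as TGATG, 1 base of any kind and AA, and was in 3.62% of promoters and in HERPUD1 alone among the members. These matches describe letters in 1 window and say nothing on whether a factor was bound in these cells.

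Levels were first compared between the genes, per kilobase of the canonical transcript (CPM per kb), since a long transcript collects more reads. ATF4 was the most abundant member with a mean of 353 CPM per kb over the 16 libraries, ahead of HSPA5 in 16 of 16. The ER chaperones HSPA5 and HSP90B1 followed with DDIT3 at means of 99.6, 90.3 and 93.2 CPM per kb. These 3 could not be ordered, because HSPA5 exceeded DDIT3 in 8 of 16 libraries and DDIT3 exceeded HSP90B1 in 8 of 16. PDIA4 and HERPUD1 averaged 47.1 and 44.9 CPM per kb and kept that order in 10 of 16, DNAJB9, SDF2L1 and ATF6 averaged 10.7, 10.6 and 9.16 CPM per kb with neighbours in order in 9 and 10 of 16, and ERN1 was lowest at 1.35 CPM per kb in all 16. The sensor ERN1 was thus at the low end and the translationally controlled factor ATF4 at the high end of the members. The sensor ATF6 was not clearly apart from SDF2L1, and EIF2AK3 is not a member.

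**Figure D1:**
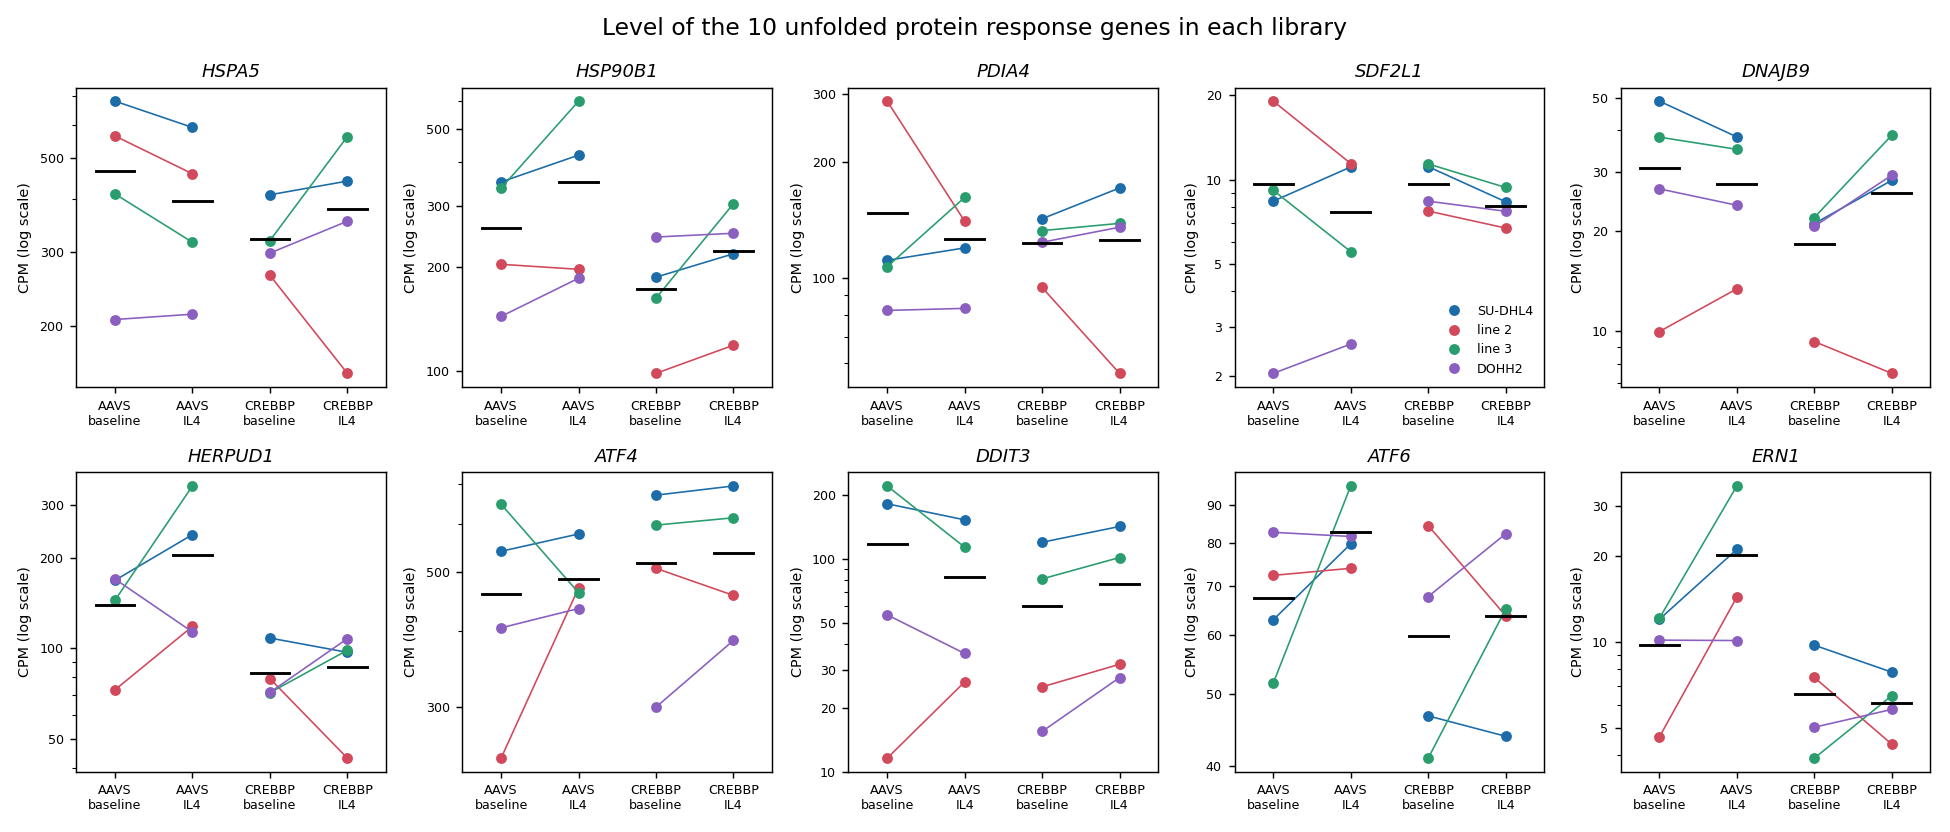
CPM on a log axis (y) in the 4 groups (x) for each of the 10 genes, with 1 point per library, coloured by line, thin lines joining the baseline and IL4 libraries of a pool, and a black bar for the mean of the 4 lines. SU-DHL4 and line 3 lie above the other pair of lines for DDIT3 in every group, line 2 is lowest for DNAJB9 in every group, and 3 of the 4 AAVS IL4 points of ERN1 lie above every other point of that gene.

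Among the ER chaperones, HSPA5 (BiP, the main Hsp70 chaperone of the ER, ENSG00000044574, GRCh38 chr9:125234853-125241382) had levels of 681, 564, 411 and 208 CPM in AAVS baseline for SU-DHL4, line 2, line 3 and DOHH2. In the same order of lines it stood at 591, 459, 316 and 214 CPM in AAVS IL4, at 409, 264, 319 and 298 CPM in CREBBP baseline and at 441, 155, 562 and 354 CPM in CREBBP IL4. The 4 groups overlapped, and DOHH2 was lowest in both AAVS groups but not in the CREBBP groups. HSP90B1 (GRP94, the Hsp90 chaperone of the ER, ENSG00000166598, chr12:103930107-103953931) stood at 351, 203, 337 and 144 CPM in AAVS baseline, 420, 197, 600 and 185 CPM in AAVS IL4, 187, 98.6, 162 and 244 CPM in CREBBP baseline and 218, 119, 304 and 250 CPM in CREBBP IL4. Its highest library was AAVS IL4 of line 3, and SU-DHL4, line 2 and line 3 were each lower with CREBBP targeted, whereas DOHH2 was higher, at baseline and with IL4 alike.

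PDIA4 (ERp72, a disulfide isomerase, ENSG00000155660, chr7:149003062-149028662) ranged from 56.3 to 288 CPM, with both ends in line 2: 288 CPM in AAVS baseline and 56.3 CPM in CREBBP IL4. SDF2L1, a small ER protein that works with HSPA5 and its J-domain partners (ENSG00000128228, chr22:21642302-21644299), ranged from 2.04 to 19.1 CPM, and its low end was DOHH2, with 2.04 and 2.60 CPM in the AAVS groups. DNAJB9 (ERdj4, a J-domain cochaperone that targets HSPA5 to ERN1 and to misfolded clients, ENSG00000128590, chr7:108569867-108574850) stood at 49.0, 9.98, 38.2 and 26.7 CPM in AAVS baseline, 38.3, 13.4, 35.1 and 23.9 CPM in AAVS IL4, 21.0, 9.32, 21.9 and 20.6 CPM in CREBBP baseline and 28.3, 7.48, 38.7 and 29.4 CPM in CREBBP IL4. Line 2 was the lowest in each of the 4 groups. HERPUD1 (Herp, an organiser of ER-associated degradation, ENSG00000051108, chr16:56932142-56944864) stood at 168, 72.7, 145 and 170 CPM in AAVS baseline, 239, 118, 347 and 113 CPM in AAVS IL4, 108, 79.3, 71.1 and 71.3 CPM in CREBBP baseline and 96.9, 43.1, 98.5 and 108 CPM in CREBBP IL4. In CPM, all 4 AAVS IL4 libraries lay above all 8 CREBBP libraries for HERPUD1, by a small margin (lowest 113 CPM, against 108 CPM). Of all genes tested, 14.3% had no overlap between AAVS IL4 and CREBBP IL4 in 1 direction or the other. No such share was computed for AAVS IL4 against all 8 CREBBP libraries. With edgeR scaling, HERPUD1 of DOHH2 was higher in CREBBP IL4 than in AAVS IL4. The AAVS IL4 libraries of SU-DHL4 and line 3 lay above all 12 other libraries.

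Of the transcription factors, ATF4 (the effector of the PERK arm, ENSG00000128272, chr22:39519695-39522683) was the most even member after ATF6, with 246 to 695 CPM over the 16 libraries, a 2.82-fold span. Its lowest library was AAVS baseline of line 2. DDIT3 (CHOP, a target of ATF4, ENSG00000175197, chr12:57516588-57521737) had the widest span, 19.1-fold from 11.6 to 221 CPM. It stood at 182, 11.6, 221 and 54.8 CPM in AAVS baseline, 153, 26.5, 114 and 36.0 CPM in AAVS IL4, 120, 25.1, 80.8 and 15.5 CPM in CREBBP baseline and 143, 32.0, 102 and 27.7 CPM in CREBBP IL4. In every group SU-DHL4 and line 3 were above line 2 and DOHH2, and no library of the first pair, at 80.8 CPM or more, reached down to the second, at 54.8 CPM or less. ATF6 (ENSG00000118217, chr1:161766298-161977574) ranged only from 41.0 to 95.5 CPM, a 2.33-fold span. ERN1 (ENSG00000178607, chr17:64039080-64130819) stood at 12.0, 4.63, 12.1 and 10.1 CPM in AAVS baseline, 21.1, 14.3, 35.2 and 10.1 CPM in AAVS IL4, 9.73, 7.50, 3.91 and 5.01 CPM in CREBBP baseline and 7.82, 4.37, 6.47 and 5.79 CPM in CREBBP IL4. The AAVS IL4 libraries of SU-DHL4, line 2 and line 3 were above all 12 others, and DOHH2 was not.

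The line accounted for more of the spread than the group for 9 of the 10 members. In log2 CPM with edgeR scaling, the line took 86.3% of the sum of squares of DNAJB9 and 83.1% of that of DDIT3, and the group 6.37% and 2.79%. The line's share was between 43.5% and 57.7% for HSP90B1, HSPA5, ATF4, SDF2L1 and HERPUD1. ERN1 was the exception, with 26.4% for the line and 48.0% for the group, followed by HERPUD1 with 35.5% for the group. PDIA4 and ATF6 were the least ordered, with 69.4% and 59.0% left to neither. The line and the group have the same number of levels (4 each), and the shares are a description of these 16 libraries.

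**Figure D2:**
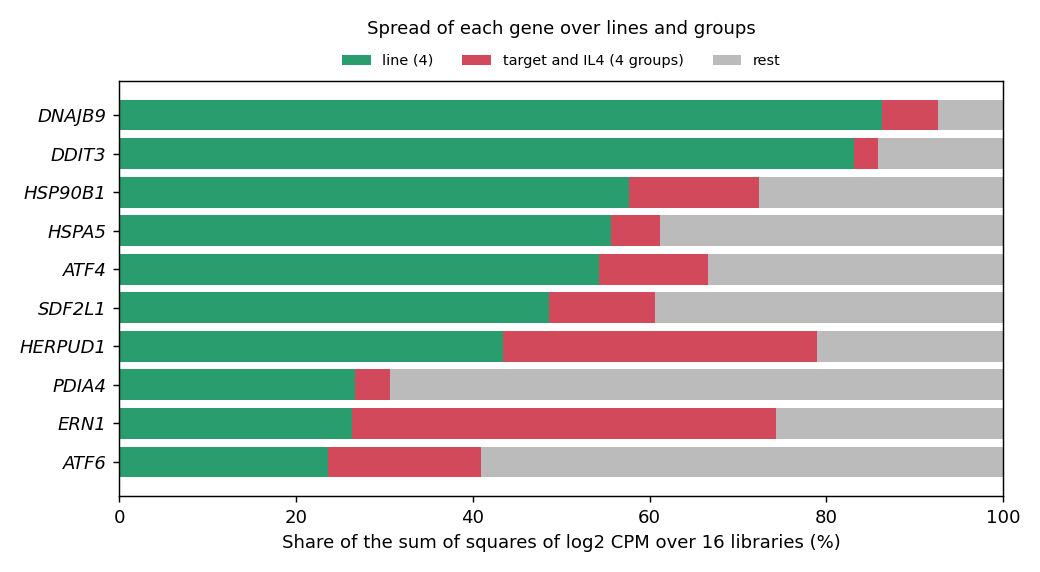
Share of the sum of squares of log2 CPM over the 16 libraries (x, in percent) that goes with the line, with the group and with neither, for each gene (y). The bars of DNAJB9 and DDIT3 are mostly line (86.3% and 83.1%), and ERN1 is the gene whose group share is largest (48.0%).

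Within lines, some members moved together and others apart. After each line's mean was subtracted, ERN1 and HERPUD1 had the highest Pearson correlation of the 45 pairs over the 16 libraries (0.92, and 0.85 over the 12 libraries without AAVS IL4). ATF4 and its target DDIT3 correlated at 0.69 (0.70 over the 12), HSPA5 and SDF2L1 at 0.67 (0.58) and PDIA4 and SDF2L1 at 0.65 (0.72). DDIT3 and PDIA4 had the lowest value, -0.77 (-0.84). HSPA5 and HSP90B1, the chaperones whose promoters share ERSE, correlated at 0.37 over 16 libraries and at 0.71 over the 12. These values share libraries, scaling and RNA quality, and no test was made of them.

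The next question was what IL4 did in the control pools. None of the 10 genes was called in the AAVS pools (edgeR, adjusted p under 0.05), where 488 of 20310 genes were called, or 2.4%. At an unadjusted p under 0.05, 1 member was counted, ERN1, beside 16% of all genes. ERN1 averaged 9.71 ± 3.50 CPM (SD, n = 4) at baseline and 20.2 ± 11.0 CPM with IL4, with a log2 fold change of 0.93 (SE 0.33, 95% interval 0.15 to 1.71, adjusted p = 0.245 by edgeR). The higher level was seen in 3 of 4 lines, and DOHH2 had 10.1 CPM in both. HERPUD1 had a log2 fold change of 0.42 (95% interval -0.28 to 1.11), also with DOHH2 against the other 3 lines. In the AAVS IL4 libraries of SU-DHL4, line 2, line 3 and DOHH2, the marking transcripts summed to 2787, 1086, 6062 and 2170 CPM. The T cell markers summed to 108, 72.6, 209 and 34.7 CPM in these libraries, in the order of lines of ERN1 and HERPUD1. Line 3 had the highest ERN1, HERPUD1, HSP90B1 and ATF6 of all 16 libraries. Whether these levels are related was not tested.

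The chaperones among the members stayed within the spread of the lines in the AAVS pools. HSPA5 had a log2 fold change of -0.27 (95% interval -0.74 to 0.20) and was lower in 3 of 4 lines, and HSP90B1 one of 0.29 (95% interval -0.16 to 0.74), higher in 3 of 4. DDIT3 was at -0.24 with an interval of -1.20 to 0.71, wide because line 2 was higher with IL4 and the other 3 lines lower. The fitted values of ATF4 (0.10), ATF6 (0.25), DNAJB9 (-0.12), PDIA4 (-0.14) and SDF2L1 (-0.24) had intervals that included 0. The median over the 10 members was -0.01, beside 0.01 over all genes tested. The same direction in 4 of 4 lines was shown by 30.2% of all genes tested and by none of the members. By DESeq2 and limma-voom, too, 0 of the 10 were called, beside 10.2% and 4.23% of all genes tested. By each, 1 member had an unadjusted p under 0.05, beside 4485 and 3491 of 20310 genes.

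In the CREBBP pools, which involve no AAVS IL4 library, no gene at all was called by edgeR: 0 of 18282, or 0%, with 2.75% at an unadjusted p under 0.05. DESeq2 called 1 gene (0.00547%) and limma-voom 0, none of them a member. Of the 10 members, DDIT3 and DNAJB9 had an unadjusted p under 0.05 by edgeR. DESeq2 and limma-voom counted 3 members each, beside 716 and 660 of 18282 genes. DDIT3 averaged 60.4 ± 49.2 CPM at baseline and 76.1 ± 55.9 CPM with IL4 (SD, n = 4), and the log2 fold change was 0.49 (SE 0.18, 95% interval 0.08 to 0.90, adjusted p = 0.924 by edgeR), with higher levels in 4 of 4 lines. DNAJB9 had a log2 fold change of 0.41 (SE 0.15, 95% interval 0.07 to 0.76, adjusted p = 0.924 by edgeR), and HSP90B1 one of 0.41 (SE 0.18, 95% interval -0.00 to 0.81, adjusted p = 0.924 by edgeR).

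Direction depended on the scaling for line 2 in this comparison. With edgeR scaling, DDIT3, DNAJB9 and HSP90B1 were higher with IL4 in 4 of 4 lines, as 14.6% of all genes were in 1 direction or the other. In unscaled CPM, DNAJB9 of line 2 was lower with IL4 (9.32 to 7.48 CPM), in the library with the high share of 7SK and 7SL counts. HSPA5 had a log2 fold change of 0.15 with 3 of 4 lines higher, and the remaining 6 members lay between -0.21 for SDF2L1 and 0.16 for ATF6. ERN1 was at 0.01 (95% interval -0.49 to 0.51). The median of the 10 was 0.14, and that of all genes tested was -0.04.

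At baseline, the question was whether loss of CREBBP alone moved the response genes. Again 0 of the 10 were called by edgeR, beside 0 of 18936 genes, or 0%, while DESeq2 called 514 genes (2.71%) and limma-voom 39 (0.206%), with 0 members in either. HERPUD1 and DNAJB9 had an unadjusted p under 0.05 by edgeR, which 12.8% of all genes had. By DESeq2, 2 members had one, beside 2909 of 18936 genes, and by limma-voom 3, beside 2817 of 18936. The edgeR count of members was 0 without SU-DHL4, 0 without line 3, 6 without line 2 and 2 without DOHH2. In the same order, 1229 of 19319, 1044 of 19328, 3707 of 19206 and 1853 of 18356 genes tested had such a p. The count over all genes thus moved with the line left out as well. HERPUD1 averaged 139 ± 45.7 CPM in AAVS and 82.5 ± 17.6 CPM in CREBBP pools (SD, n = 4), with a log2 fold change of -0.60 (SE 0.24, 95% interval -1.13 to -0.07, adjusted p = 0.349 by edgeR) and line 2 against the direction of the other 3. DNAJB9 averaged 31.0 ± 16.7 and 18.2 ± 5.96 CPM, with -0.53 (SE 0.23, 95% interval -1.03 to -0.02, adjusted p = 0.380 by edgeR). It was the only member with 1 direction in 4 of 4 lines, where 20.6% of all genes had one. Within SU-DHL4 the DNAJB9 level was 49.0 CPM in the AAVS pool and 21.0 CPM in the CREBBP pool.

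Of the 10 members, 7 had a negative and 3 a positive fitted value at baseline, with a median of -0.40 against -0.03 for all genes tested. The negative ones included HSPA5 (-0.32), HSP90B1 (-0.48), ERN1 (-0.47) and DDIT3 (-0.63), each lower in 3 of 4 lines. Their size moved with the setting, from -0.62 to -0.07 for HSPA5, -0.89 to -0.29 for HSP90B1, -0.85 to -0.16 for ERN1 and -1.16 to -0.23 for DDIT3, with no change of sign. DDIT3 is the member for which a single line decided the call. It was higher with CREBBP targeted in line 2 (11.6 to 25.1 CPM) and lower in SU-DHL4, line 3 and DOHH2 (182 to 120, 221 to 80.8 and 54.8 to 15.5 CPM). Without line 2 the log2 fold change was -1.16 (SE 0.25, adjusted p = 0.0359 by edgeR), and 515 genes were then called in all, against 0 with it. ATF4, in contrast, was at 0.30 and SDF2L1 at 0.46, and both intervals included 0.

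With IL4 present, the CREBBP and AAVS pools differed more, in the comparison that sets the 4 AAVS IL4 libraries against libraries with low sums of the marking transcripts. Of all genes tested 859 of 19581 were called, or 4.39%, and 25.6% had an unadjusted p under 0.05. Of the 10 members 0 were called by edgeR and 2 had an unadjusted p under 0.05, ERN1 and HERPUD1. ERN1 averaged 20.2 ± 11.0 CPM in AAVS IL4 and 6.12 ± 1.44 CPM in CREBBP IL4 (SD, n = 4), with a log2 fold change of -1.31 (SE 0.34, 95% interval -2.10 to -0.53, adjusted p = 0.0707 by edgeR), and it was lower in 4 of 4 lines with no overlap between the groups (lowest AAVS IL4 library 10.1 CPM, highest CREBBP IL4 library 7.82 CPM). Of all genes tested, 14.3% had CPM values that did not overlap between the groups and 37.8% had 1 direction in 4 of 4 lines.

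The ERN1 difference lay near the threshold and crossed it in some settings. DESeq2 gave an adjusted p of 0.00343, limma-voom 0.0336, the edgeR fit of all 16 libraries 0.0160, edgeR without a filter 0.0240 and edgeR on total counts 0.0397. These settings called 21.2%, 10.4%, 20%, 9.34% and 6.8% of all genes tested, in that order. With other scaling factors, 10 counts asked of every library, no block or 1 line left out, ERN1 was not called by edgeR (adjusted p from 0.0516 to 0.243). HERPUD1 averaged 204 ± 112 and 86.6 ± 29.4 CPM, with -0.89 (SE 0.30, 95% interval -1.59 to -0.19, adjusted p = 0.124 by edgeR), and DESeq2 (0.0448) and the fit of all 16 libraries (0.0306) called it. In those settings 2 of the 10 members were thus called, near the share of all genes. Its CPM was lower in 4 of 4 lines, though in DOHH2 by little (113 to 108 CPM), and with edgeR scaling DOHH2 was higher. With IL4 in the CREBBP pools, ERN1 and HERPUD1 had fitted values of 0.01 and 0.05, and between the pools at baseline -0.47 and -0.60. The other members gave -0.28 for HSP90B1, -0.13 for ATF6, 0.17 for HSPA5, 0.18 for DDIT3, 0.07 for DNAJB9, 0.20 for PDIA4, 0.39 for ATF4 and 0.56 for SDF2L1. These signs depended on the scaling: the median over all genes was -0.05 with the TMM factors used here and -0.33 on total counts, and the members' median was 0.12 and -0.15. HSPA5, DDIT3, DNAJB9 and PDIA4 were below 0 on total counts, so the direction of these 4 depends on the scaling.

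Whether IL4 acted differently in CREBBP and AAVS pools was tested directly in 1 model of all 16 libraries. None of the 10 members was called, beside 140 of 21932 genes, or 0.638%, and DNAJB9 had an unadjusted p under 0.05, as 13.3% of all genes did. By DESeq2, 0 members were called, beside 5.02% of all genes, and by limma-voom 0, beside 2.68%. An unadjusted p under 0.05 was had by 2 members with DESeq2, beside 3638 of 21932 genes, and by 1 with limma-voom, beside 3513. DNAJB9 had a difference in log2 fold change of 0.64 (SE 0.28, 95% interval 0.02 to 1.25, adjusted p = 0.355 by edgeR), from -0.12 in AAVS pools and 0.41 in CREBBP pools when each was fitted alone, with line 2 against the other 3 lines. ERN1 had a difference of -0.82 (SE 0.41, 95% interval -1.71 to 0.07, adjusted p = 0.418 by edgeR), so its response in the 2 kinds of pool was not shown to differ. DDIT3 was at 0.84 with a wide interval of -0.20 to 1.89 and HSPA5 at 0.53 with -0.11 to 1.16. The same direction in 4 of 4 lines was found in 26.5% of all genes and in no member. The median of the members was 0.18, against 0.05 for all genes.

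**Figure D3:**
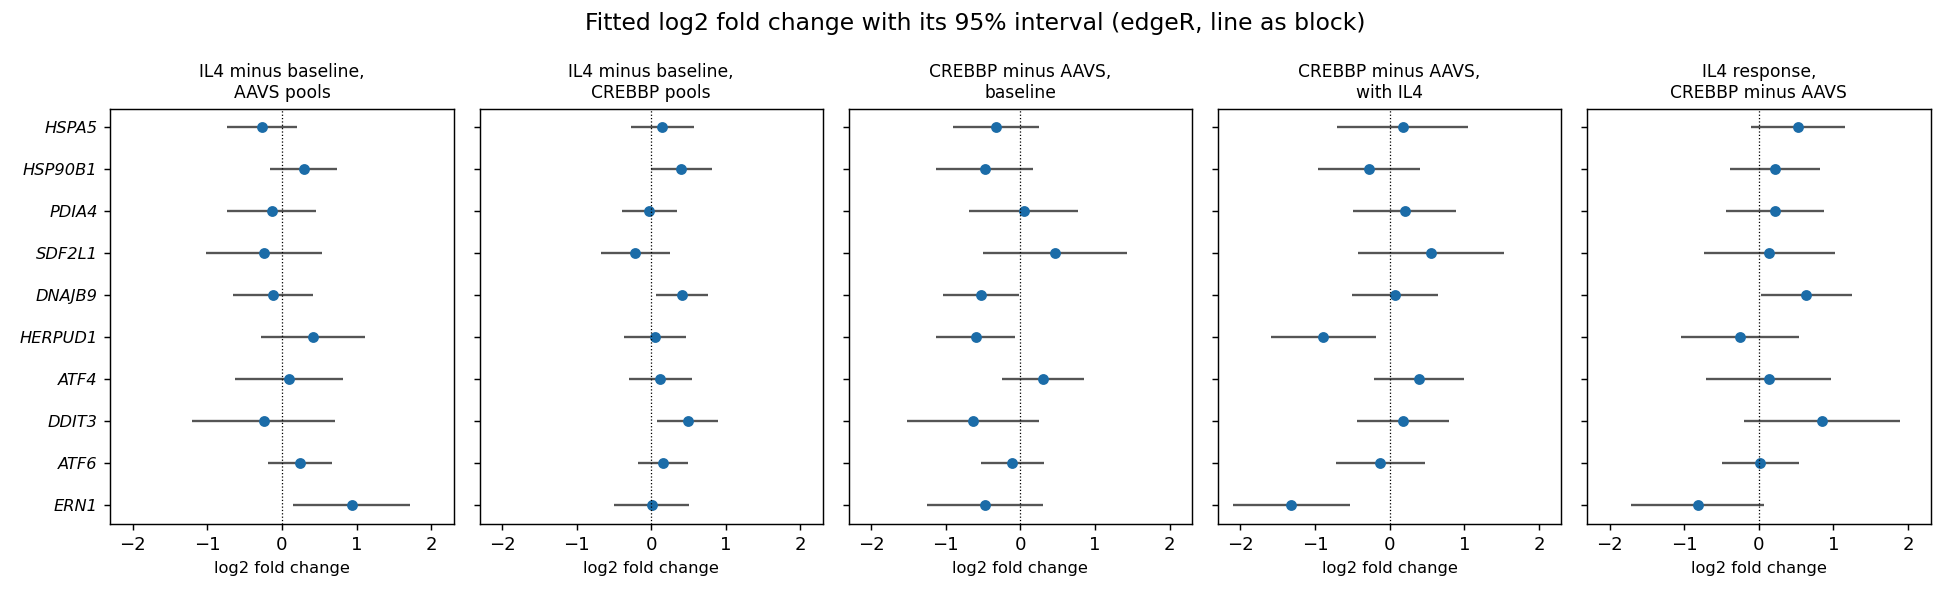
Fitted log2 fold change (x) with its 95% interval for each gene (y) in the 5 comparisons, from edgeR with the line as a block. No interval reaches significance after adjustment over all genes, and those that exclude 0 before it are ERN1, then DNAJB9 and DDIT3, then DNAJB9 and HERPUD1, then ERN1 and HERPUD1, and DNAJB9 in the last panel.

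The other genes of the pathway were counted in 5 lists. They hold 9 sensors and transcription factors, 19 ER chaperones and folding enzymes, 15 symbols of ER-associated degradation (1 of them, VIMP, an older name of SELENOS, which is also listed), 19 targets of PERK and the integrated stress response and 12 genes of translocation and ER export. Over all genes tested, edgeR called 0% to 4.39% per comparison, and 2.75% to 25.6% had an unadjusted p under 0.05. Low counts in lists of this size are therefore not read as a result about the lists. Among chaperones and folding enzymes, 0 of 19 tested were called by edgeR in any of the 5 comparisons, with 1 to 3 per comparison at an unadjusted p under 0.05. DESeq2 called DNAJB11 for IL4 in AAVS pools and for the difference in response and ERO1B between the pools with IL4, and limma-voom called DNAJB11 for the difference. Of all genes, DESeq2 called 10.2% for IL4 in AAVS pools, 5.02% for the difference and 21.2% between the pools with IL4. For the difference, limma-voom called 2.68%. The degradation list gave 0 of 14 by edgeR in each, with 0 to 2 at an unadjusted p under 0.05, and 1 by DESeq2, EDEM1 with IL4 in AAVS pools. In the CREBBP pools with IL4 and at baseline, 0 genes of any list were called by edgeR, and DESeq2 called 1, DDIT4, at baseline, beside 2.71% of all genes. List genes not called by edgeR are named only if they had 1 direction in 4 of 4 lines, so that agreement restates the choice. It was met by 30.2% of all genes for IL4 in AAVS pools, 14.6% for IL4 in CREBBP pools and 20.6% at baseline. Between the pools with IL4 the share was 37.8%, and for the difference in response 26.5%.

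The calls by edgeR lay in 3 lists, sensors and factors (EIF2AK3, XBP1 and CREB3L2), PERK targets (PHGDH) and translocation and export (SRPRB), and all came from comparisons that involve the AAVS IL4 libraries. EIF2AK3 (PERK) stood at 136, 33.9, 151 and 294 CPM in AAVS baseline and at 266, 96.1, 483 and 520 CPM in AAVS IL4, higher in 4 of 4 lines. It rose by a log2 fold change of 1.18 (SE 0.21, adjusted p = 0.0475 by edgeR). In CREBBP IL4 it stood at 86.4, 25.6, 131 and 259 CPM, and the difference from AAVS IL4 was -1.32 (SE 0.24, adjusted p = 0.0319 by edgeR), with 4 of 4 lines lower. XBP1, the factor activated by ERN1, stood at 20.7, 50.2, 25.6 and 9.77 CPM in AAVS baseline, 138, 70.7, 315 and 68.8 CPM in AAVS IL4 and 25.9, 26.4, 19.3 and 12.9 CPM in CREBBP IL4. Its log2 fold change was 2.39 with IL4 in AAVS pools (SE 0.48, adjusted p = 0.0627 by edgeR) and -2.29 between CREBBP and AAVS pools with IL4 (SE 0.48, adjusted p = 0.0451 by edgeR). With IL4 in the CREBBP pools, XBP1 had a log2 fold change of 0.27 (adjusted p = 0.924 by edgeR), higher in 4 of 4 lines. For the difference in response, EIF2AK3 gave -1.22 (adjusted p = 0.152 by edgeR, 0.0173 by edgeR without the low-count filter and 0.0108 by DESeq2).

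These sensor calls lay close to the threshold. The call of EIF2AK3 with IL4 in AAVS pools was lost whichever line was left out (adjusted p from 0.0901 to 0.237 by edgeR), with DESeq2 size factors (0.0537) and with 10 counts asked of every library (0.102). Its difference between the pools with IL4 was lost without SU-DHL4 (0.161), line 3 (0.120) or DOHH2 (0.0786). The XBP1 difference was lost without SU-DHL4 (0.172), line 3 (0.127) or DOHH2 (0.132). XBP1 with IL4 in AAVS pools was in turn called without line 2 (0.00368), by DESeq2 (1.24e-05), by limma-voom (0.0255), in the fit of all 16 libraries (0.00199) and without the low-count filter (0.000418). The direction was the same in each of these settings. Leaving a line out could hardly change it, because every line had that direction.

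CREB3L2, a membrane-bound factor of the ATF6 kind, and PHGDH, the first enzyme of serine synthesis and an ATF4 target, were close to absent outside the AAVS IL4 libraries. CREB3L2 stood at 17.9, 3.68, 43.1 and 1.78 CPM in AAVS IL4 and at no more than 0.278 CPM in the other 12, with 0 to 12 counts. PHGDH stood at 10.5, 1.06, 31.2 and 38.0 CPM in AAVS IL4 and at no more than 0.844 CPM in the other 12. In the comparison of IL4 in AAVS pools both passed the filter on low counts through the AAVS IL4 libraries alone, with 0 to 7 and 0 to 1 counts at baseline, so that they had to differ there, and their calls are not read as support. Like the sum of the marking transcripts, they were high in the AAVS IL4 group. The 8 marking transcripts had their lowest sum in line 2, whereas CREB3L2 was lowest and PHGDH highest in DOHH2. The T cell markers, with sums of 108, 72.6, 209 and 34.7 CPM in AAVS IL4, had the order of lines of CREB3L2. The part of either set of transcripts was not tested. No other PERK target was called by edgeR. ATF3, a stress-induced factor, had a log2 fold change of 2.23 with IL4 in AAVS pools (SE 0.48, adjusted p = 0.0772 by edgeR), and CHAC1, which degrades glutathione, one of 0.89 (adjusted p = 0.274 by edgeR), both higher in 4 of 4 lines. ATF3 was called without line 2 (0.0207), by DESeq2 (8.10e-05) and by limma-voom (0.0279). DDIT4, an inhibitor of mTOR signalling, was higher with CREBBP targeted in 4 of 4 lines at baseline, with a log2 fold change of 1.07 (adjusted p = 0.256 by edgeR).

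**Figure D4:**
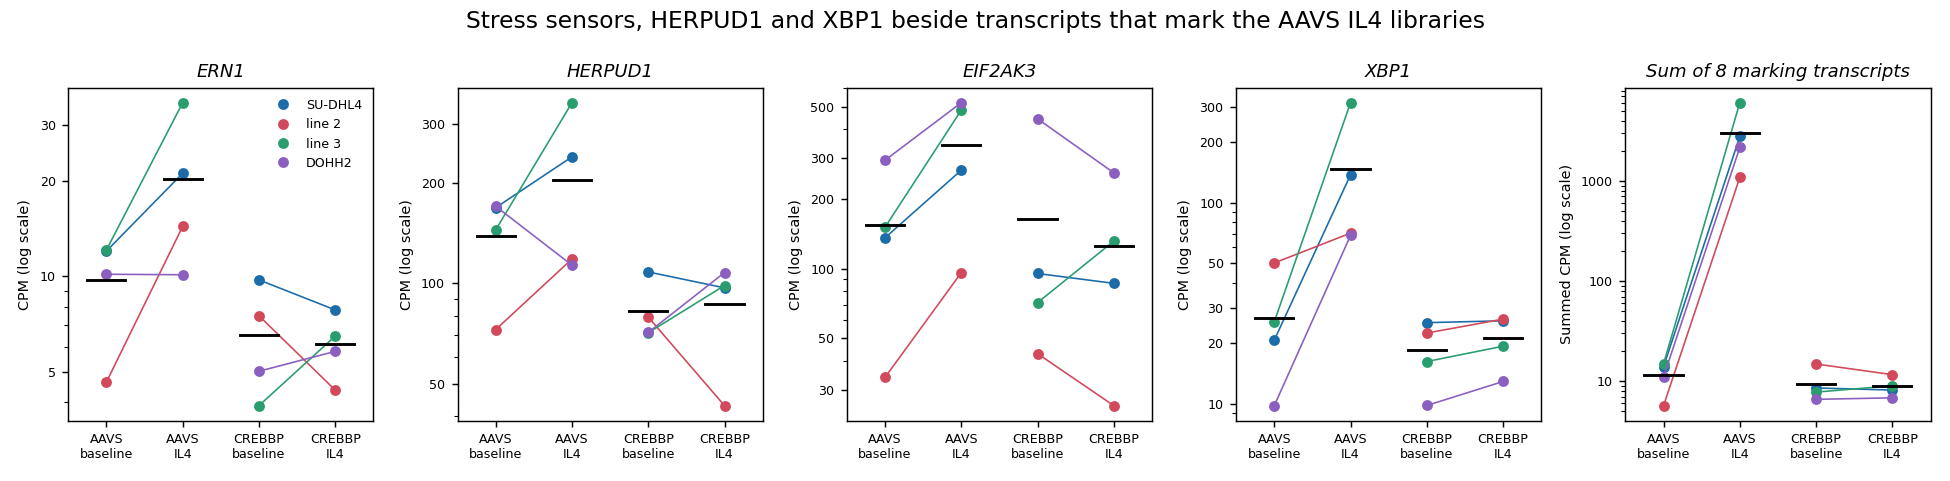
CPM on a log axis (y) of ERN1, HERPUD1, EIF2AK3 and XBP1, and the summed CPM of the 8 marking transcripts, in the 4 groups (x), with points coloured by line, thin lines joining the libraries of a pool and black bars for means. The sum is at 1086 to 6062 CPM in AAVS IL4 and at most 14.9 CPM elsewhere, and line 3 is the highest AAVS IL4 point for ERN1, HERPUD1, XBP1 and the sum.

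Among the genes of translocation and ER export, SRPRB, a subunit of the signal recognition particle receptor, was the only call. It stood at 53.7, 41.8, 44.3 and 28.0 CPM in AAVS IL4 and at 96.3, 53.2, 76.1 and 52.8 CPM in CREBBP IL4, higher in 4 of 4 lines with a log2 fold change of 1.0 (SE 0.20, adjusted p = 0.0426 by edgeR). The groups overlapped across lines. The call was lost without SU-DHL4, line 3 or DOHH2 (adjusted p from 0.134 to 0.189 by edgeR), with upper-quartile factors (0.0682) and on total counts (0.132). DESeq2 and limma-voom also called SRPRB, where they called 21.2% and 10.4% of all genes. SSR3 was called there by DESeq2 (adjusted p = 0.0341) and in the edgeR fit of all 16 libraries (0.0283), which called 20% of all genes. In that comparison the median of this list was 0.41 and that of the chaperones 0.38, against -0.05 for all genes, and the sensors had a median of -0.17. DNAJB11, a J-domain partner of HSPA5, was the chaperone closest to a call for the difference in response (1.04, SE 0.22, adjusted p = 0.0667 by edgeR), with 0.38 in CREBBP and -0.55 in AAVS pools. DESeq2 (0.000358) and limma-voom (0.0266) called it. ERO1B, an oxidase that drives disulfide formation, had a log2 fold change of -1.54 between CREBBP and AAVS pools with IL4 (adjusted p = 0.0953 by edgeR), and EDEM1, which sends misfolded glycoproteins to degradation, one of -0.68 (adjusted p = 0.158 by edgeR), both lower in 4 of 4 lines.

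The genes most like HSPA5, DDIT3 and ATF4 were named by the Pearson correlation over the 16 libraries after each line's mean was subtracted, out of 21931 others. For HSPA5 these were PIGM (0.92), UBE2G2 (0.91), PWWP2A (0.90), FBXW2 (0.90) and ENSG00000242261 (0.89). For DDIT3 they included ANKMY2 (0.91), LINC00877 (0.88), ZNF558 (0.88) and CAPN12 (0.87), and for ATF4 they were ENSG00000262202 (0.93), PPME1 (0.92), ENSG00000287697 (0.91), CNBD2 (0.91) and TNFRSF10D (0.91). No member of the set was among them. The values describe likeness over libraries that share depth and scaling, and no test was made of them.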

How the data were processed

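The authors sequenced ribosomal RNA depleted RNA (50 ng per library, per the labels) and, per the submitters' processing notes and the paper's methods, trimmed reads with Cutadapt 2.3, checked them with FastQC 0.11.8 and MultiQC 1.7, mapped them to GRCh38 with STAR 2.7.8a and assigned them to genes with RSEM 1.3.3. The values the authors deposited are RSEM estimated counts per gene, unnormalized and already whole, which made rounding unnecessary. The methods describe these steps for primary B cells and refer to them for the lines, and whether technical replicates were averaged for the lines is not given in the sources used here. RSEM shares reads among similar genes by estimate, and all isoforms of a gene are added up.

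Tables were joined in Python (3.11.15, with pandas 2.3.3 and numpy 2.4.6), and models were fitted in R 4.3.3 with DESeq2 1.42.0, edgeR 4.0.16 and limma 3.58.1. Each of the 5 comparisons was fitted over all genes that passed filterByExpr (minimum count 10, minimum total 15), with TMM factors, edgeR's quasi-likelihood test, lines as blocks, and p-values adjusted by Benjamini-Hochberg over all genes tested. The difference in response used all 16 libraries with a term per pool. Per-library levels are CPM of the total count without TMM factors. Positions and canonical transcript lengths came from GENCODE 44, which holds 62639 of the 62714 genes (99.9%), and 20930 genes carry no symbol in the files. A level of 3 counts was the floor, and depth covers counting error only.

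The replicate number of a library is its cell line, so numbers pair the samples. As a check, deviations from the group means correlated within lines with medians of 0.409, 0.685, 0.227 and 0.596 for SU-DHL4, line 2, line 3 and DOHH2, the lowest pair being -0.0782 in line 3. No pair of libraries in a group was a copy (chi-square per degree of freedom at least 98.7). The fits were tested on simulated data. Members and lists were chosen with earlier results of these data known. All 10 members are named, and of each list up to 3 genes per comparison, called ones first and then those with the largest change, at least 5 CPM and 1 direction in 4 lines. The alternatives were fits by DESeq2 or limma-voom, other scaling factors, leaving out the low-count filter or asking for 10 counts in all libraries, fits with the block removed, with a line left out or with all 16 libraries together, and, chosen after seeing the data, total counts without TMM factors. One gene that the rule on likeness to DDIT3 would name is not reported here.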

Additional observations from a re-analysis of the deposited data

Results flagged for a closer look

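Single libraries lay far from the other 3 of their group in 3 of the 40 groups of member levels, by Dixon's criterion at 95%, which chance meets in about 1 group of 20. DNAJB9 in CREBBP baseline of line 2 was at 9.32 CPM against 20.6 to 21.9 CPM in the other lines. PDIA4 in AAVS baseline of line 2 was at 288 CPM against 82.1 to 111 CPM, and HERPUD1 in CREBBP IL4 of line 2 at 43.1 CPM against 96.9 to 108 CPM. All 3 are libraries of line 2, and the last is the library in which 7SK and 7SL took 18.1% of the counts.

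CREB3L2 and PHGDH passed the threshold in the test of the difference in IL4 response between CREBBP and AAVS pools, with fitted values of -7.23 and -9.86 on the log2 scale. Both are near 0 in AAVS baseline and passed the filter on low counts there through the AAVS IL4 libraries, so they had to differ, and the fitted values depend on the prior count and measure no size. The part of the transcripts that mark those libraries was not tested.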

How the results depend on the processing

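In each of the 5 comparisons the members were mostly uncalled under every setting, and many fitted values near 0 changed sign. Of 200 member values with 1 line left out, 173 kept direction and side of the threshold, 26 changed sign and 1 became a call. Of 440 under the other settings, 396 kept both, 37 changed sign and 7 became calls, all of ERN1 or HERPUD1 between CREBBP and AAVS pools with IL4. The genes named from the lists never changed sign, but those not called were chosen for having the same direction in every line. With a line left out their sign could therefore hardly change, and the contrast with the members is not read as robustness. The 40 mean levels moved by less than 1 SD without 7SK and 7SL. A fit of all 16 libraries is already the design for the difference in response. Where a value is given without its cause, the cause was not tested. Depth limits SDF2L1 and ERN1 most, with as few as 107 and 176 counts.

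Genes called over all genes, in the order IL4 in AAVS pools, IL4 in CREBBP pools, CREBBP against AAVS at baseline, the same with IL4 and the difference in response, were 1851, 40, 586, 3466 and 1191 without a filter, with 1 member, ERN1, called with IL4. They were 2062, 1, 514, 4154 and 1100 by DESeq2, with 2 members called with IL4. With limma-voom they were 860 for IL4 in AAVS pools, 39 at baseline, 2032 with IL4 (1 member) and 587 for the difference. All 16 libraries in 1 fit gave 1270 for IL4 in AAVS pools and 4393 with IL4 (2 members). At least 10 counts in every library gave 25 for IL4 in AAVS pools and 69 for the difference, where fewer genes were tested. Total counts gave 1331 with IL4 (1 member), of which 56 were higher, against 189 of 859 with TMM factors. Without the replicate block, 540 genes were called with IL4 and 2 for the difference in response, and no member. With 1 line left out, calls ranged from 64 to 1035 for IL4 in AAVS pools, from 0 to 515 at baseline (0 to 1 member), from 25 to 2547 with IL4 and from 16 to 264 for the difference, the highest each time without line 2.

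Upper-quartile factors moved the median of all genes between CREBBP and AAVS pools with IL4 from -0.05 to -0.27 and total counts to -0.33, and signs follow. With upper-quartile factors and on total counts, respectively, HSPA5 was at -0.037 and -0.093, DDIT3 at -0.031 and -0.095, DNAJB9 at -0.14 and -0.21 and PDIA4 at -0.013 and -0.071 in that comparison. For the difference in response, ATF4 was then at -0.024 and -0.085, ATF6 at -0.14 and -0.20 and SDF2L1 at -0.017 and -0.074. At baseline PDIA4 was at -0.042 and -0.058, and with IL4 in CREBBP pools ERN1 was at -0.0065 and -0.039. DESeq2 size factors put PDIA4 at 0.0041 with IL4 in CREBBP pools and ATF6 at -0.051 for the difference, and the DESeq2 test put them at 0.0043 and -0.051. Limma-voom put ERN1 at -0.0015 with IL4 in CREBBP pools. Without a filter, ATF4 with IL4 in AAVS pools was at -0.027 and PDIA4 at baseline at -0.0052. With at least 10 counts in every library, DNAJB9 between the pools with IL4 was at -0.026, and for the difference ATF4 was at -0.041, ATF6 at -0.15 and SDF2L1 at -0.033. In the fit of all 16 libraries, ATF4 with IL4 in AAVS pools was at -0.0072, ERN1 and PDIA4 with IL4 in CREBBP pools at -0.013 and 0.042, and PDIA4 at baseline at -0.059. Without the replicate block these 4 were at -0.013, -0.047, 0.0070 and -0.096.

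With 1 line left out, values ranged for IL4 in AAVS pools from -0.72 to 0.018 for DDIT3, -0.21 to 0.31 for ATF4 and -0.37 to 0.12 for PDIA4. For IL4 in CREBBP pools they ranged from -0.14 to 0.13 for ERN1, -0.11 to 0.056 for PDIA4 and -0.11 to 0.20 for HERPUD1. At baseline they ranged from -0.17 to 0.55 for PDIA4 and -0.061 to 1.02 for SDF2L1. Between the pools with IL4 they ranged from -0.13 to 0.59 for HSPA5, -0.0066 to 0.28 for DDIT3, -0.27 to 0.073 for ATF6, -0.099 to 0.21 for DNAJB9 and -0.063 to 0.54 for PDIA4. For the difference they ranged from -0.084 to 0.29 for HSP90B1, -0.023 to 0.26 for ATF4, -0.19 to 0.096 for ATF6, -0.075 to 0.45 for PDIA4 and -0.27 to 0.39 for SDF2L1.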
